A study of Mus musculus with 4 samples.

Results

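Axon guidance ligands and receptors were measured as transcripts in the dorsal striatum of the adult mouse. The members are the genes whose symbols name an Eph receptor, an ephrin, a semaphorin of classes 3 to 7, a plexin, a neuropilin, a Slit, a Robo, a netrin or netrin-G, an Unc5 receptor or Dcc. They also had to reach a mean of at least 10 normalised reads over all 46 libraries. Of 71 genes with such symbols, 68 reached it, out of 19561 genes that did so among 25259 in the table. They comprised 13 Eph receptors, 7 ephrins, 20 semaphorins, 9 plexins, 2 neuropilins, 3 Slits, 4 Robos, 3 netrins, 2 netrin-Gs and 5 netrin receptors. Sema3b, with a mean of 13.7, lay just inside the limit, and Epha1 (6.27), Efna4 (4.03) and Ntn5 (0.94) lay outside it.

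All mice were C57BL/6 and 8 weeks old, and were either wild-type or Foxp2hum/hum, that is, homozygous for an allele carrying the human changes of Foxp2, a forkhead transcription factor linked to speech. Tissue of the dorsomedial striatum (DMS) and the dorsolateral striatum (DLS) was cut from frozen brains by laser capture microdissection, and mRNA libraries were made by a protocol for small amounts of RNA. There were 11 libraries of wild-type DMS, 11 of wild-type DLS, 12 of Foxp2hum/hum DMS and 12 of Foxp2hum/hum DLS. No label says which libraries came from the same animal. The p-values therefore measure the spread between libraries, which may in part be technical, and both regions may share animals.

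Axon guidance molecules steer growing axons by attraction and repulsion, and many stay expressed in the adult brain, where they act on synapses and on migrating neuroblasts. Slits are secreted repellents read by Robo receptors. Netrins attract through Dcc and repel through Unc5 receptors, while the membrane-anchored netrin-Gs act at synapses. Semaphorins signal through plexins, with neuropilins as co-receptors for most of class 3. Ephrins are membrane-bound and signal into the cell that carries the Eph receptor as well as into their own.

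Library totals ran from 16.79 to 41.01 M reads (M for mega), with group medians of 20.43 to 24.36 M. Foxp2 itself lay between 752 and 1784 normalised reads in all 46 libraries, a level that does not tell the alleles apart. All 11 markers of striatal projection neurons had a median above 0 in every group, and 7 of the 11 were lower in DMS in each genotype. The lists for cortical and septal neurons, interneurons, glia and vessels also had no median of 0, so this does not test the striatal label. The summed level of the 11 projection neuron markers was 101272 to 143784 in wild-type DMS against 147164 to 186478 in wild-type DLS. In Foxp2hum/hum it was 95498 to 126499.6 in DMS against 149544 to 175263 in DLS. DMS lies beside the lateral ventricle, and 8 of 10 tested markers of choroid plexus and ependyma and 9 of 11 of neuroblasts and subventricular progenitors were higher in DMS in each genotype. The summed level of 12 choroid plexus and ependyma markers was 622 to 11399.7 in wild-type DMS, 387 to 559.9 in wild-type DLS, 1028 to 7693 in Foxp2hum/hum DMS and 367 to 522 in Foxp2hum/hum DLS. Folr1, Aqp1, Otx2 and Tmem212 had a median of 0 in both DLS groups, and Ccdc153 in wild-type DLS. The summed level of 11 neuroblast markers, none with a median of 0, was 4431 to 8576, 3740.2 to 4245, 4653 to 8785 and 3047 to 4518 in the same order. Its medians were 5480, 3853, 6003 and 3835, and Tubb3 alone had medians of 3275, 3207.5, 3340 and 3152. The sum thus mostly reads Tubb3, whereas Dcx had medians of 260, 53.2, 312 and 46.7. Library 70 of wild-type DLS stood apart, with the highest value of that group for Dcx (112), the neuroblast marker, for Ttr (137), the choroid plexus marker, and for the summed markers of cortical projection neurons. Among the other lists, higher and lower markers in wild-type and then Foxp2hum/hum DMS numbered 1 and 0, then 0 and 0, of 6 for cortical projection neurons, 0 and 2, then 0 and 1, of 6 for septal neurons, and 1 and 3, then 0 and 3, of 7 for striatal interneurons. For glia and vessels they were 2 and 0, then 0 and 0, of 8 for oligodendrocytes, 2 and 2 in each of 8 for astrocytes, and 0 of 8 endothelial and mural and 0 of 6 microglial markers by limma, with 1 and 0, and 0 and 1, at an unadjusted p under 0.05.

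The members spanned a wide range of levels. On the scale of mean normalised reads per kilobase of exon, over all libraries, Efnb3, a transmembrane ephrin, came first at 709.8, ahead of Sema7a, a semaphorin held by a lipid anchor, at 479. Sema6b (289.6), Epha4 (288), Efna3 (263) and Plxnd1 (245) followed. Slit2 (3.83) and Sema3b (3.23) were lowest. Among netrin receptors Unc5a was highest (181), among Robos Robo2 (98.1) and among Slits Slit3 (96.0). A value may hold reads of introns, so this scale may overstate long genes such as Slit3, with 6067 exonic bases in a span of 587284. It may also hold reads of nested genes, such as Gm15998 within Efna3, with 37.98% as many reads. The coefficient of variation between libraries of a group had a median over the members of 26.7% in wild-type DMS, 28% in wild-type DLS, 24.6% among the Foxp2hum/hum libraries of DMS and 29% among those of DLS.

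A larger share of these genes differed between the regions than of all genes. In wild-type striatum 17 members were higher and 6 lower in DMS, that is 33.8% of 68, against 17.3% of all genes tested (limma adjusted p under 0.05, with 8.54% of all genes higher and 8.72% lower). In Foxp2hum/hum striatum 18 were higher and 5 lower, again 33.8%, against 18.1% of all genes (9.33% higher and 8.82% lower). Their median log2 difference, DMS minus DLS, reached 0.25 for wild-type and 0.22 for Foxp2hum/hum, against 0.0068 and 0.018 over all genes tested. Among genes with a mean of at least 50 the shares were 37.5% of 64 members against 18.7% of all genes in wild-type, and 35.9% against 19.4% in Foxp2hum/hum. In this bulk tissue, fewer cells of a type and less RNA per cell cannot be told apart.

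Both genotypes, whose libraries are separate, gave much the same picture. Of the members, 19 passed in both genotypes, each in the same direction, and all 27 that passed in either had the same sign in both. Over the 68 members the log2 differences of the 2 genotypes had a Pearson correlation of 0.97 and a Spearman correlation of 0.88, against 0.87 and 0.76 over all 19561 genes. These are correlations across genes, which are not independent replicates.

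**Figure D1:**
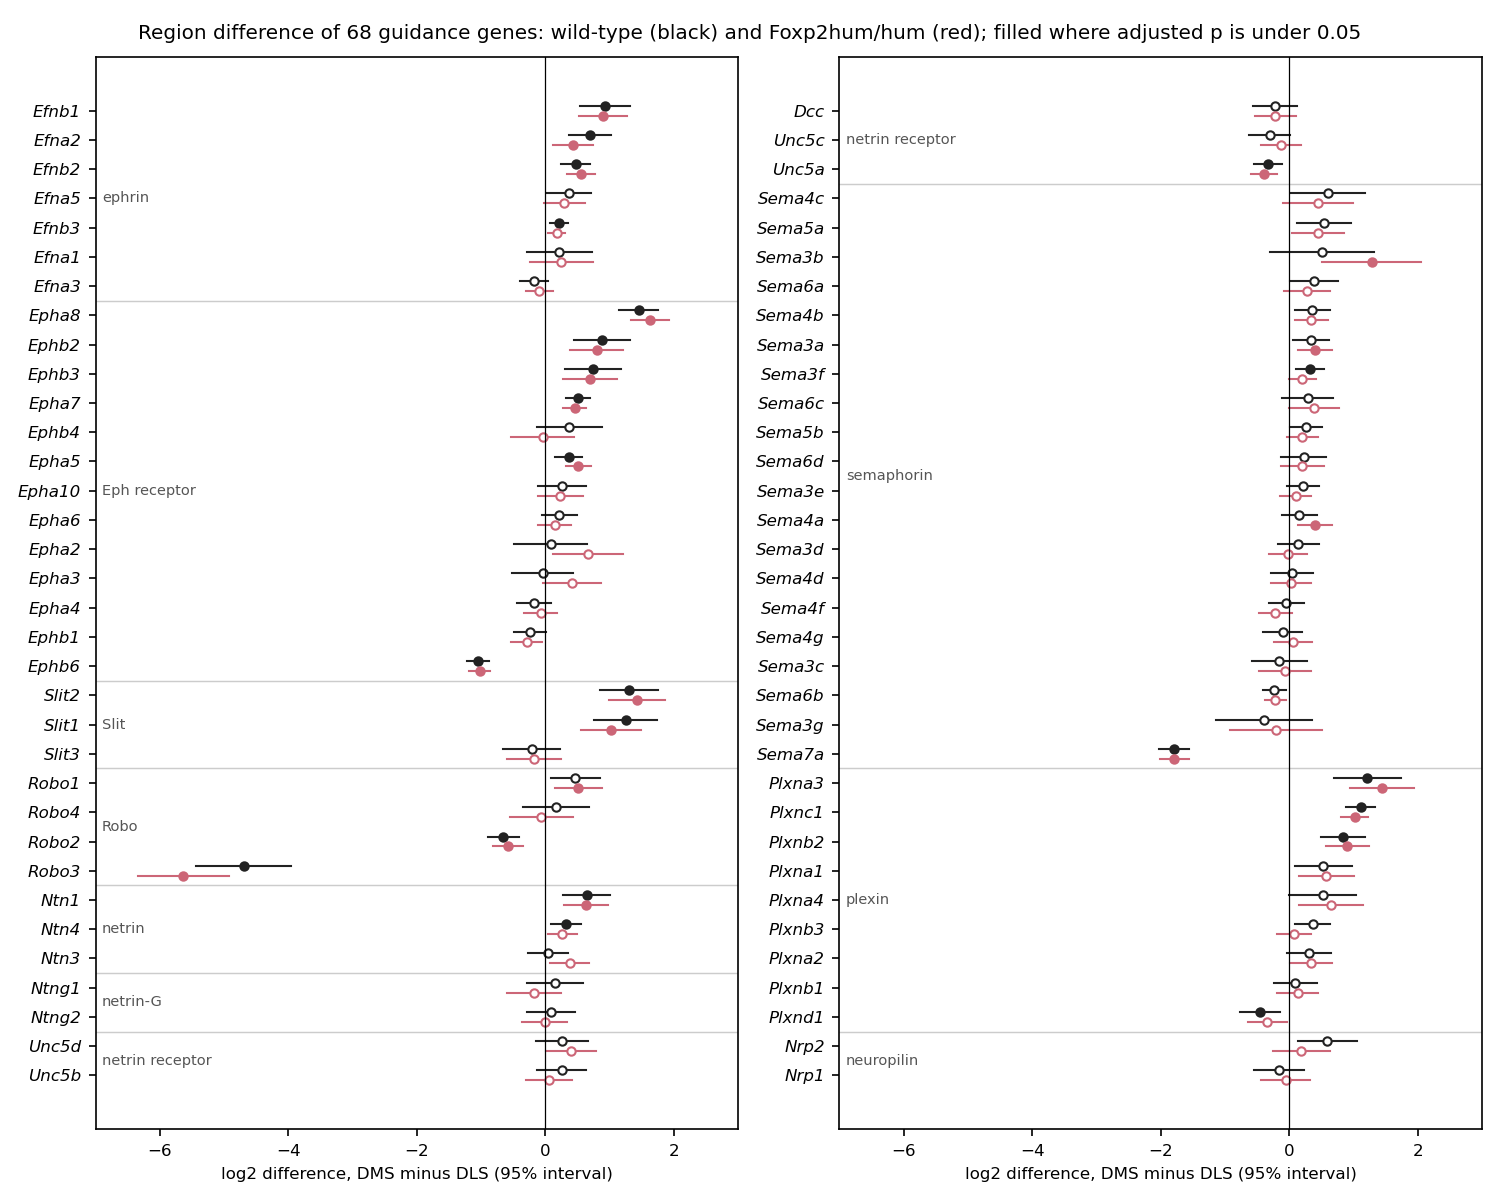
Log2 difference between DMS and DLS (x axis, with its 95% interval) of each of the 68 members (y axis), by family, in wild-type (black) and Foxp2hum/hum (red) libraries; filled points passed an adjusted p of 0.05. Robo3 lies farthest to the left at -4.70 and -5.64, Sema7a at -1.79 in both genotypes, and Epha8 farthest to the right at 1.45 and 1.63.

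For 5 members the DMS libraries did not overlap the DLS libraries of the same genotype, in both genotypes: Robo3, Sema7a and Ephb6 were lower in DMS, and Epha8 and Plxnc1 were higher. Over all genes tested, 1.95% showed no overlap in wild-type, 2.2% in Foxp2hum/hum and 1.17% in both with the same direction. The sequences around their start sites are shown because these 5 genes separate the regions within each genotype. Each line holds the 250 bases before the RefSeq start (lower case) and the first 20 transcribed bases (capitals), read 5′ to 3′ on the strand of the gene.
Robo3: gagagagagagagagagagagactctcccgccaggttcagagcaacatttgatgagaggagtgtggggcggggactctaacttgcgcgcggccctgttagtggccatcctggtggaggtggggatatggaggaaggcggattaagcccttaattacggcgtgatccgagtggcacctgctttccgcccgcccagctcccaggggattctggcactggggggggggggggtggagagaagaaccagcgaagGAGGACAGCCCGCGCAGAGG
Sema7a: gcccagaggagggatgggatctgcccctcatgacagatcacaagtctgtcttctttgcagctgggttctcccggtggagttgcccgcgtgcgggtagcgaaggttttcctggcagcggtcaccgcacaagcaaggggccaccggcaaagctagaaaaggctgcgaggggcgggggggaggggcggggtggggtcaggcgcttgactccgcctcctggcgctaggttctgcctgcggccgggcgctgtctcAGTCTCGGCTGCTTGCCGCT
Ephb6: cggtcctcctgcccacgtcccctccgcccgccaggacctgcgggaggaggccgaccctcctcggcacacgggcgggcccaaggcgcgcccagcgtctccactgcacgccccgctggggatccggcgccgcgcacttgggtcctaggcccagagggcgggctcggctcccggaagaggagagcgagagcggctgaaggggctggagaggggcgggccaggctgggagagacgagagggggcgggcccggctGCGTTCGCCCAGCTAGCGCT
Epha8: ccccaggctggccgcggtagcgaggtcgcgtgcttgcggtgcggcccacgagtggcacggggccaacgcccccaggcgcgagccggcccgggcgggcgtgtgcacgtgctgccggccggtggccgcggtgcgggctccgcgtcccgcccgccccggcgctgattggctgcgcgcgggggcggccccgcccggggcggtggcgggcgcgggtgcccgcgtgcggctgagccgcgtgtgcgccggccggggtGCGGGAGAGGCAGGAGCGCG
Plxnc1: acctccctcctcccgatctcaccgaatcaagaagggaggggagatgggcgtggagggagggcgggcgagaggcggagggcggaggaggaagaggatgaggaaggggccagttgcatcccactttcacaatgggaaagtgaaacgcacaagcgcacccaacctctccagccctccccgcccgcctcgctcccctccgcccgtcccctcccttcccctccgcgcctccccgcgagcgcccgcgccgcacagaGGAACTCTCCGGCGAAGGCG
The sequences come from RefSeq windows of build GRCm38.p6, and each matched mm9 at exactly 1 place. On mm9 they lie at chr9:37240741-37241010, minus strand, chr9:57787669-57787938, plus strand, chr6:41555260-41555529, plus strand, chr4:136512712-136512981, minus strand, and chr10:94407460-94407729, minus strand. The RefSeq start coincided with the GENCODE M1 start for Robo3 and Epha8 and lay 1 base before it for Sema7a. For Plxnc1 it lay 267 bases before the GENCODE gene model, and for Ephb6 it lay within that model. The windows of 300 bases, 250 before to 50 after the start, were rich in G and C, at 63.3% for Robo3, 67.3% for Sema7a, 76.3% for Ephb6, 84.3% for Epha8 and 69.0% for Plxnc1. The median over 74 windows of the 58 members with an entry was 64.3%, against 52.7% over all 32851 windows. The letters TGTTTAC, the core of the motif bound by FOXP proteins, were in 0 of the 74 member windows on either strand (GTAAACA on the other), against 3.65% of all windows. That says only that these letters are not in these windows.

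Robo3 showed the largest regional difference of the 68 members. Robo3, a divergent Robo known for letting hindbrain and spinal commissural axons cross the midline, had a lowest, median and highest library of 79.4, 144 and 169.8 normalised reads in wild-type DLS, against 0, 4.41 and 19.1 in wild-type DMS. In Foxp2hum/hum the values were 90.2, 119.7 and 219 in DLS and 0, 1.42 and 10.7 in DMS, and 3 DMS libraries had no read, as had 1 of wild-type DMS. The lowest DLS library of either genotype thus lay at 79.4 and the highest DMS library at 19.1. The ratio of group means, DLS over DMS, came to 22 for wild-type and 55.7 for Foxp2hum/hum. The log2 difference was -4.70 ± 0.37 in wild-type (limma adjusted p = 1.40e-14) and -5.64 ± 0.35 for Foxp2hum/hum (adjusted p = 5.30e-18). With DMS near 0 its size depends on the pseudocount, from -3.79 to -4.93 in wild-type and from -4.22 to -6.08 in Foxp2hum/hum for pseudocounts of 5 and 0.5.

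Robo2 (mm9 chr16:73892551-74412070, minus strand), a main neuronal Slit receptor, was also lower in DMS, but the regions overlapped. Its lowest, median and highest library was 1408, 2042 and 2697 in wild-type DLS and 829, 1274 and 1953 in wild-type DMS. In Foxp2hum/hum these were 1366, 1726 and 2656 in DLS and 909, 1196 and 1702 in DMS. Of the DLS libraries, 8 of 11 wild-type and 6 of 12 Foxp2hum/hum lay above every DMS library of their genotype. The log2 difference was -0.65 ± 0.12 in wild-type (limma adjusted p = 3.47e-05) and -0.58 ± 0.11 for Foxp2hum/hum (adjusted p = 9.64e-05). Robo1, the other broad neuronal Slit receptor, went the other way. It was higher in Foxp2hum/hum DMS (0.51 ± 0.18, limma adjusted p = 0.0367) and did not pass in wild-type (0.47 ± 0.19, adjusted p = 0.0793). That call was lost in 10 of 46 fits that left out 1 library (adjusted p up to 0.0749). Robo4, the endothelial Robo, did not pass in either genotype (0.16 and -0.067).

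The ligands Slit1 and Slit2 were higher in DMS. Of their neuronal receptors, Robo2 was lower there. Robo1 was higher in Foxp2hum/hum DMS (0.51) and did not pass in wild-type (0.47). Slit1 (mm9 chr19:41674747-41818155, minus strand) had a lowest, median and highest library of 72.4, 111 and 258 in wild-type DMS and 32.2, 45.2 and 156 in wild-type DLS. The highest DLS value is library 70, and the next was 74.3. In Foxp2hum/hum Slit1 was 55.3, 95.7 and 187 in DMS and 25.5, 49.5 and 95.4 in DLS. All 11 wild-type and all 12 Foxp2hum/hum DMS libraries lay above the median of their DLS group, though the ranges overlapped. For Slit1 the log2 difference was 1.25 ± 0.24 in wild-type (limma adjusted p = 1.16e-04) and 1.02 ± 0.23 for Foxp2hum/hum (adjusted p = 9.29e-04). Slit2 was at 57.4, 75.0 and 141 in wild-type DMS against 15.1, 31.4 and 69.8 in DLS, and at 46.8, 80.1 and 127 against 11.6, 31.9 and 47.4 in Foxp2hum/hum. Of its DMS libraries, 6 of 11 wild-type and 11 of 12 Foxp2hum/hum lay above all of DLS, and the highest wild-type DLS library was again library 70. The fitted log2 difference of Slit2, DMS minus DLS, was 1.30 ± 0.23 in wild-type (limma adjusted p = 1.65e-05) and 1.42 ± 0.22 for Foxp2hum/hum (adjusted p = 1.10e-06). Slit3, the most abundant Slit here, did not pass (-0.22 and -0.17).

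**Figure D2:**
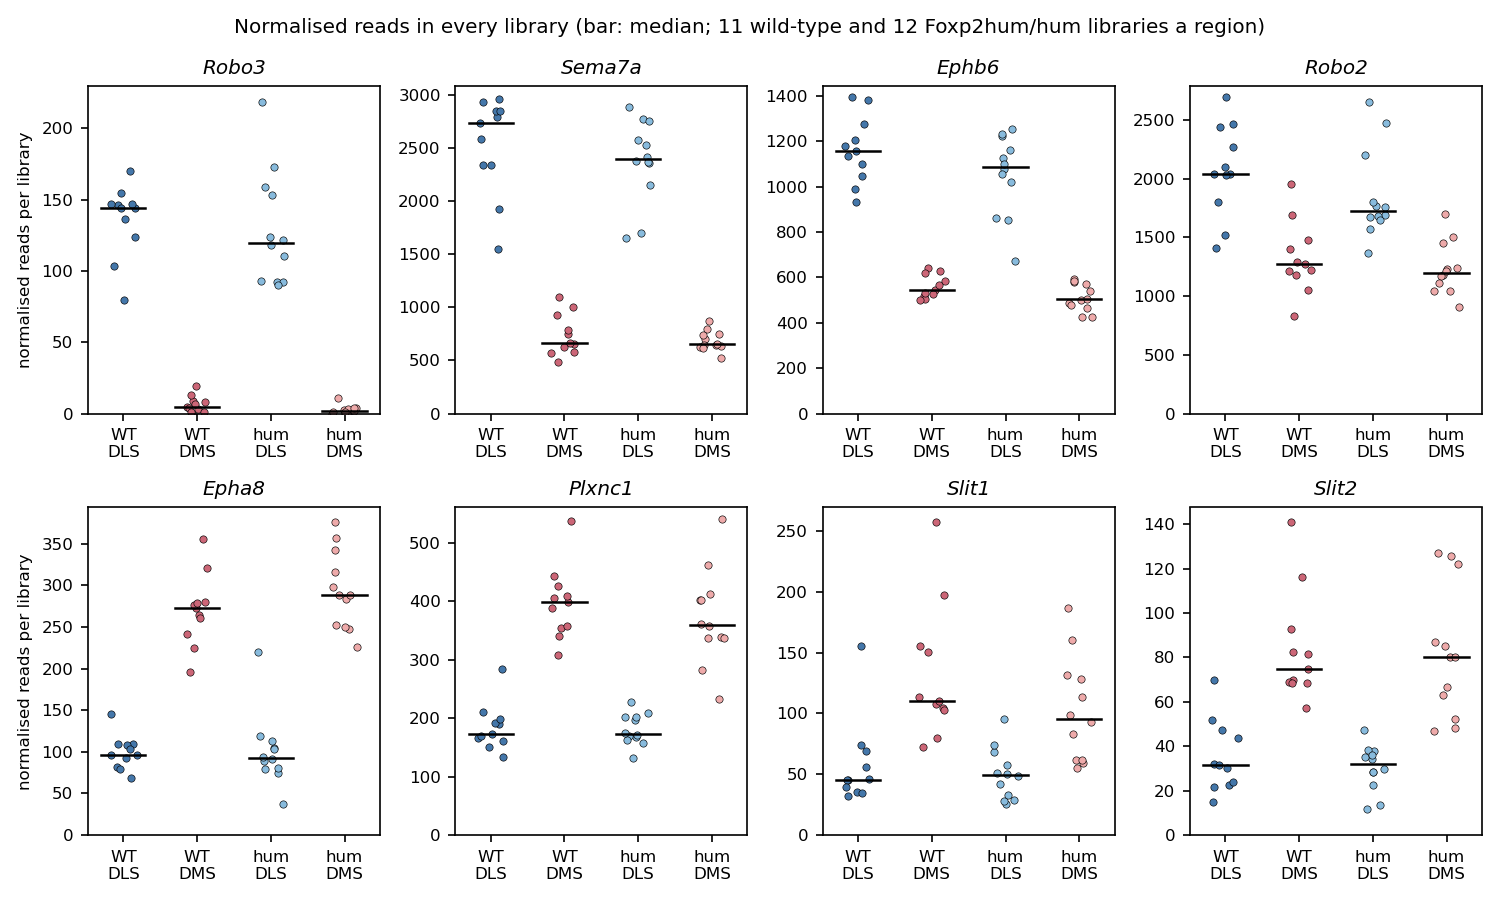
Normalised reads (y axis, linear, starting at 0) of 8 members in each library (points) of the 4 groups (x axis; WT, wild-type; hum, Foxp2hum/hum), with the group median as a bar. For Robo3, Sema7a, Ephb6, Epha8 and Plxnc1 no DMS point reaches the DLS points of its genotype, while Robo2, Slit1 and Slit2 overlap; the high wild-type DLS point of Slit1, at 156, is library 70.

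Of 7 ephrins, 4 were higher in wild-type DMS (57.1%) and 3 in Foxp2hum/hum DMS (42.9%), against 8.54% and 9.33% of all genes tested. None was lower, against 8.72% and 8.82% of all genes. Efnb1, a transmembrane ligand of EphB receptors, had a lowest, median and highest library of 73.9, 116 and 207 in wild-type DMS against 41.5, 59.0 and 131 in DLS. In Foxp2hum/hum it was 50.01, 114 and 156 against 28.9, 62.0 and 84.7. The ranges overlapped, with 4 of 11 wild-type and 10 of 12 Foxp2hum/hum DMS libraries above all of DLS. The log2 difference of Efnb1 was 0.93 ± 0.20 in wild-type (limma adjusted p = 3.80e-04) and 0.90 ± 0.19 for Foxp2hum/hum (adjusted p = 3.02e-04). Efnb3 (mm9 chr11:69367594-69373707, minus strand), the most abundant member per kilobase of exon and a midline ligand for Epha4, differed little. Its lowest, median and highest library was 2244, 2387 and 2903 in wild-type DMS and 1646, 2176 and 2505 in DLS, and 2084, 2298 and 2988 and 1772, 2133 and 2368 in Foxp2hum/hum. The groups overlapped widely, and the log2 difference was 0.22 ± 0.07 in wild-type (limma adjusted p = 0.0232) and 0.18 ± 0.067 for Foxp2hum/hum (adjusted p = 0.0566), so that it passed in wild-type only. That the genotypes differ in this is not shown, since the interaction was -0.039 (limma adjusted p = 1), and the wild-type call was lost without any one of libraries 43, 51 or 88 (adjusted p up to 0.0565). Efnb2, also an EphB ligand, was higher in both genotypes (0.47 and 0.55). Efna2, a lipid-anchored ligand of EphA receptors, was higher at 0.70 in wild-type (limma adjusted p = 0.00112) and 0.42 in Foxp2hum/hum (adjusted p = 0.0482), where the call was lost in 28 of 46 fits that left out 1 library (adjusted p up to 0.116). Efna1, Efna3 and Efna5 did not pass, with values from -0.18 for Efna3 to 0.36 for Efna5.

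Of 13 Eph receptors, 5 were higher and 1 lower in DMS, the same 6 genes in both genotypes. That is 46.2% in each, against 17.3% of all genes in wild-type and 18.1% in Foxp2hum/hum. Epha8 had a lowest, median and highest library of 196, 272 and 355 in wild-type DMS against 68.8, 96.2 and 145 in DLS, and 226, 288 and 376 against 37.7, 92.7 and 219.6 in Foxp2hum/hum. Within each genotype the regions did not overlap, and library 92 of Foxp2hum/hum DLS, at 219.6, lay close to library 41 of Foxp2hum/hum DMS, at 226. Across genotypes they crossed, since library 50 of wild-type DMS was at 196. Its log2 difference was 1.45 ± 0.15 in wild-type (limma adjusted p = 1.55e-10) and 1.63 ± 0.15 for Foxp2hum/hum (adjusted p = 1.10e-12). Ephb6, an Eph receptor whose kinase domain is inactive, went in the other direction. It was at 930.2, 1157 and 1394 in wild-type DLS and 501, 544 and 640.0 in DMS, and at 671, 1087 and 1254 and 426, 504 and 592 in Foxp2hum/hum. The ratio of group means, DLS over DMS, came to 2.08 for wild-type and 2.05 for Foxp2hum/hum. On the log2 scale this was -1.05 ± 0.086 in wild-type (limma adjusted p = 6.14e-14) and -1.02 ± 0.082 for Foxp2hum/hum (adjusted p = 2.84e-14).

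Ephb2, a kinase-active receptor for B ephrins, was higher in DMS at a much lower level. It was at 45.6, 85.1 and 143 in wild-type DMS against 30.4, 42.7 and 70.3 in DLS, and at 44.2, 79.2 and 129 against 18.4, 52.4 and 79.4 in Foxp2hum/hum, with overlap in both. Ephb2 differed on the log2 scale by 0.89 ± 0.22 in wild-type (limma adjusted p = 0.00204) and 0.80 ± 0.21 for Foxp2hum/hum (adjusted p = 0.00361). Its close relative Ephb3 was higher by 0.74 and 0.70, and Epha7, an EphA receptor, by 0.51 and 0.45. Epha5 was higher by 0.36 and 0.51, but the annotated pseudogene Hmgn4, which lies within Epha5, held a value equal to 85.8% of that of Epha5 and was itself higher in DMS (0.40 and 0.58). With the value of Hmgn4 subtracted, Epha5 was at 0.082 (limma adjusted p = 0.784) and 0.13 (adjusted p = 0.608), and the parts of the 2 genes cannot be told apart. The other 7, Epha2, Epha3, Epha4, Epha6, Epha10, Ephb1 and Ephb4, did not pass, with differences from -0.29 for Ephb1 to 0.66 for Epha2. Epha4, the most abundant Eph receptor per kilobase of exon, was at -0.18 ± 0.13 in wild-type and -0.077 ± 0.13 in Foxp2hum/hum.

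Of 20 semaphorins, 1 was higher and 1 lower in wild-type DMS (10%, against 17.3% of all genes), and 3 were higher and 1 lower in Foxp2hum/hum DMS (20%, against 18.1%). The lower one was Sema7a in both, with a lowest, median and highest library of 1546, 2729 and 2958 in wild-type DLS against 487, 666 and 1093 in DMS. In Foxp2hum/hum it was 1654, 2393 and 2880.5 against 527, 652 and 873. No DLS library came below 1546 and no DMS library above 1093, and the ratio of group means, DLS over DMS, came to 3.42 for wild-type and 3.48 for Foxp2hum/hum. On the log2 scale Sema7a was at -1.79 ± 0.12 in wild-type (limma adjusted p = 2.79e-17) and -1.79 ± 0.11 for Foxp2hum/hum (adjusted p = 6.18e-18). Sema3f, a secreted ligand of Nrp2, was higher in wild-type (0.33, limma adjusted p = 0.0257). Sema3a, a secreted repellent that binds Nrp1, Sema3b and Sema4a were higher in Foxp2hum/hum (0.40, 1.28 and 0.40, limma adjusted p = 0.0291, 0.0129 and 0.026). None of these 4 passed in the other genotype, and none had an interaction that passed. Leaving out 1 library ended the call of Sema3f for 6 libraries (adjusted p up to 0.0595), of Sema3a for libraries 41, 42, 48 and 84 (up to 0.0705) and of Sema4a for libraries 61 and 80 (up to 0.0694). Sema3b kept its call in each of those fits but lost it in edgeR, with a mean of 13.7 and 2 Foxp2hum/hum DLS libraries at 0. With quantile normalisation the calls of Sema3f and Sema4a were also lost. The other 15 semaphorins did not pass in either genotype and lay between -0.39 for Sema3g and 0.61 for Sema4c.

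Plxnc1, the plexin known as a receptor of Sema7a, differed in the opposite direction to that ligand. Its lowest, median and highest library was 308, 398 and 538 in wild-type DMS and 134, 173 and 284 in DLS, and 233, 359 and 539.7 and 132, 173 and 228 in Foxp2hum/hum. Within each genotype the regions did not overlap, though library 45 of Foxp2hum/hum DMS, at 233, lay close to library 60 of Foxp2hum/hum DLS, at 228. Across genotypes they crossed, since library 77 of wild-type DLS was at 284. Its log2 difference was 1.11 ± 0.11 in wild-type (limma adjusted p = 5.11e-11) and 1.02 ± 0.11 for Foxp2hum/hum (adjusted p = 1.73e-10). Plxna3, which signals class 3 semaphorins together with neuropilins, was at 81.6, 113 and 137 in wild-type DMS against 32.04, 43.5 and 103 in DLS. In Foxp2hum/hum it was 22.5, 120.2 and 201 against 9.26, 45.7 and 70.6, where library 4 was the one low DMS library and the next was at 95.3. Plxna3 was higher by a log2 difference of 1.22 ± 0.26 in wild-type (limma adjusted p = 3.61e-04) and 1.45 ± 0.25 for Foxp2hum/hum (adjusted p = 1.11e-05). Plxnb2, a receptor of class 4 semaphorins that is also found on neural progenitors, was at 435, 545 and 999 in wild-type DMS against 241, 332 and 441 in DLS, and at 352, 525 and 789 against 120.4, 327 and 465 in Foxp2hum/hum. Of its DMS libraries, 9 of 11 and 9 of 12 lay above all of DLS, and the log2 difference was 0.84 ± 0.17 in wild-type (limma adjusted p = 2.14e-04) and 0.91 ± 0.16 for Foxp2hum/hum (adjusted p = 3.15e-05). Plxnd1, the receptor of Sema3e, was lower in wild-type DMS (-0.45, limma adjusted p = 0.0345) and did not pass in Foxp2hum/hum (-0.34, adjusted p = 0.113). The wild-type call was lost without any one of 7 libraries (adjusted p up to 0.0916). The other 5 plexins and both neuropilins did not pass. Of these, Plxna1 came close in Foxp2hum/hum (0.58, adjusted p = 0.0502), but its value overlaps that of Gm16896, a non-coding gene with 70.2% as many reads. Plxnb3 was as close in wild-type (0.37, adjusted p = 0.0512), followed by Plxna4 in Foxp2hum/hum (0.65, adjusted p = 0.0577) and Nrp2 in wild-type (0.59, adjusted p = 0.0684).

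Of 3 netrins, 2 were higher in wild-type DMS and 1 in Foxp2hum/hum DMS, and of 5 netrin receptors 1 was lower in DMS in both. Over all genes tested, 8.54% were higher in wild-type DMS and 9.33% in Foxp2hum/hum DMS, with 8.72% and 8.82% lower. Ntn1, the classical secreted netrin, was higher in DMS in both genotypes, at 0.64 ± 0.18 and 0.63 ± 0.17 (limma adjusted p = 0.0083 and 0.00611). Ntn4 passed narrowly in wild-type (0.32, adjusted p = 0.0488), but Gm8580, a pseudogene within it, had 79.95% as many reads, and with these subtracted the call was lost (adjusted p = 0.138), while Foxp2hum/hum then passed (0.62, adjusted p = 0.0367). The wild-type call of Ntn4 was also lost in 34 of 46 fits that left out 1 library (adjusted p up to 0.129). Ntn3 did not pass and overlaps Tbc1d24, whose value was 369% of its own. Unc5a, a repulsive netrin receptor and the most abundant netrin receptor here, was lower in DMS. Its lowest, median and highest library was 688, 887 and 1184 in wild-type DLS against 531, 652 and 935 in DMS, and 499, 795 and 1069.9 against 536, 583 and 737 in Foxp2hum/hum. The groups overlapped, although 11 of 11 wild-type and 11 of 12 Foxp2hum/hum DLS libraries lay above the median of DMS. The log2 difference of Unc5a was -0.33 ± 0.11 in wild-type (limma adjusted p = 0.0221) and -0.39 ± 0.10 for Foxp2hum/hum (adjusted p = 0.00348), and the wild-type call was lost without library 34 or library 70 (adjusted p up to 0.0534). Dcc, the attractive netrin receptor, was at -0.22 ± 0.17 and -0.21 ± 0.16 and did not pass, nor did Unc5b, Unc5c, Unc5d, Ntng1 or Ntng2. Among members that did not pass, overlapping genes with at least 10% as many reads were also found for Sema5b (Gm5963, 65.6%), Efna5 (AC134243.1, 58.5%), Ntng2 (6530402F18Rik, 55.4%), Efna3 (Gm15998, 37.98%) and Ephb4 (Zan, 21.4%).

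Most markers of cells at the ventricle were also higher in DMS, and whether they account for the differences of the members was not tested. Dcx was at 207 to 579.8 in wild-type DMS against 16.1 to 112 in DLS, and at 149 to 845 against 34.7 to 119 in Foxp2hum/hum, with no overlap. With the log2 level of Dcx as a covariate, a fit chosen after seeing the data, the split of the members turned from 17 higher and 6 lower to 5 higher and 21 lower in wild-type, and from 18 higher and 5 lower to 6 higher and 25 lower in Foxp2hum/hum. Over all genes the calls went with Dcx from 3377 to 8009 and from 3550 to 7918, at an even split, and the median standard error from 0.15 to 0.25 and from 0.14 to 0.25. Since the Dcx values do not overlap, that fit compares the regions at levels of Dcx that no pair of DMS and DLS libraries shares. Slit1 was then at -0.65 and -0.85, Slit2 at -0.17 and -0.019, Plxnb2 at -0.39 and -0.31, and Efnb1 at -0.011 and -0.026. Of these 8 values, that of Slit1 in Foxp2hum/hum passed, as lower in DMS (limma adjusted p = 0.0299). Epha7 (0.22 and 0.17) and Efna2 (0.48 and 0.21) kept their sign but no longer passed in either genotype (adjusted p = 0.29 and 0.407 for Epha7, 0.199 and 0.586 for Efna2). By contrast, Robo3 (-4.56 and -5.50), Sema7a (-2.45 and -2.44), Ephb6 (-1.26 and -1.23), Epha8 (1.16 and 1.34) and Plxnc1 (0.75 and 0.66) kept their direction and passed in both genotypes.

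Choroid plexus RNA, read by Ttr, varied widely within DMS, from 0.847 to 9582 among wild-type libraries (median 40.8) and from 1.06 to 6159.6 among Foxp2hum/hum libraries (median 659). With log2 Ttr as a covariate, 14 members were higher and 5 lower in wild-type, and 10 higher and 4 lower in Foxp2hum/hum. Ccdc153, an ependymal gene, was at 40.6 to 308 in wild-type DMS and 0 to 2.15 in DLS, also without overlap. Adding it to Ttr gave 4 members higher and 2 lower in each genotype, and the median standard error over all genes rose to 0.39 and 0.36. The 4 higher were Epha8, Epha7 (1.14 and 0.98), Efnb2 (1.21 and 1.16) and Sema3a (1.38 and 1.25). Sema3a had not passed in wild-type without a covariate. Robo3 (-4.92 and -5.99), Sema7a (-1.32 and -1.36) and Epha8 (2.36 and 2.38) passed in both genotypes in each of these fits. Robo2, lower in DMS with Ttr or Dcx alone, was at 0.047 and -0.011 with Ttr and Ccdc153. Slit1 was at 1.08 and 0.78 with Ttr alone, which did not pass in Foxp2hum/hum (limma adjusted p = 0.0792). Ntn1 (0.48 and 0.40, adjusted p = 0.112 and 0.267), Ephb3 (0.54 and 0.42, adjusted p = 0.141 and 0.347) and Unc5a (-0.30 and -0.35, adjusted p = 0.0902 and 0.0692) no longer passed in either genotype with Ttr alone. The wild-type calls of Efnb3 and Ntn4 ended with Ttr alone too (limma adjusted p = 0.0754 and 0.0845). So did the Foxp2hum/hum calls of Efna2, Robo1, Sema3a, Sema3b and Sema4a (limma adjusted p up to 0.383 for Efna2). The part of projection neuron markers in these differences was not tested.

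**Figure D3:**
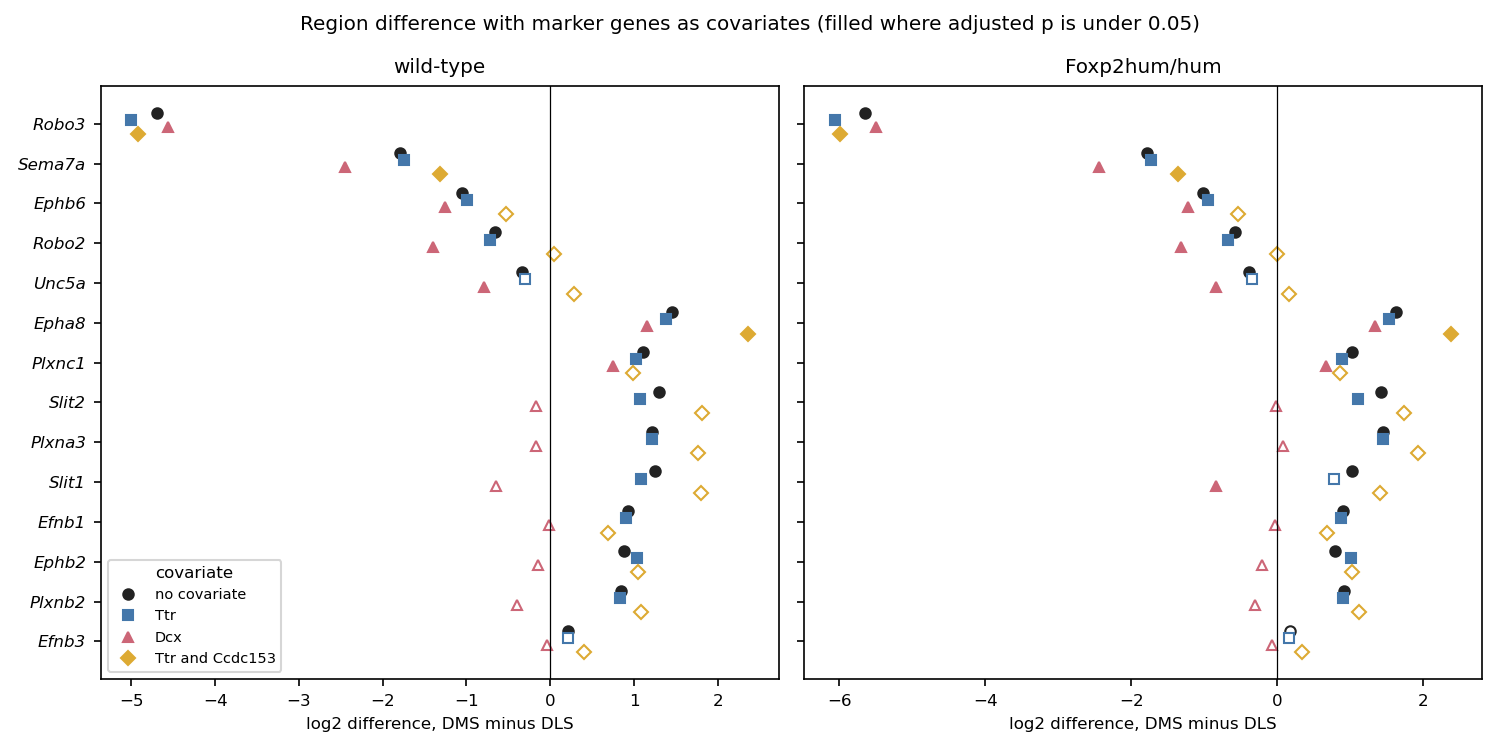
Log2 difference between DMS and DLS (x axis) of 14 members (y axis) in wild-type and Foxp2hum/hum without a covariate and with Ttr, Dcx, or Ttr and Ccdc153 as covariates; filled symbols passed an adjusted p of 0.05. With Dcx the points of Slit2, Plxna3, Slit1, Efnb1, Ephb2, Plxnb2 and Efnb3 move to 0.076 or below, while Robo3, Sema7a and Epha8 stay filled under each covariate.

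Downstream of the receptors, 46 guidance signalling effectors included 9 higher and 4 lower in wild-type DMS, that is 28.3%, against 17.3% of all genes. In Foxp2hum/hum 9 were higher and 5 lower, 30.4%, against 18.1% of all genes. Their median log2 differences were 0.086 and 0.064. Dpysl3 (1.07 and 1.39) and Dpysl5 (0.87 and 0.93), collapsin response mediator proteins that act below semaphorin receptors, were higher in both. So was Tiam1, a Rac exchange factor (0.80 and 0.79). Srgap1, a Slit-Robo GTPase-activating protein (-0.81 and -0.87), and Ngef, the exchange factor ephexin that acts below EphA receptors (-0.45 and -0.42), were lower in both. Of 24 genes for other guidance cues and their partners, 3 were higher and 2 lower in wild-type (20.8%, against 17.3% of all genes). In Foxp2hum/hum 5 were higher and 2 lower (29.2%, against 18.1%). Shh, the secreted hedgehog ligand, was lower, at -1.59 and -1.40, Hs6st1, a heparan sulfate sulfotransferase, likewise at -1.04 and -0.97, and Cdon, a Shh co-receptor, was higher by 0.99 and 1.23. Of 11 cell adhesion co-receptors, 0 were higher and 1 lower in wild-type by limma (9.09%, against 17.3% of all genes). An unadjusted p under 0.05 was reached by 6 of them, and by 5547 of all 19561 genes. In Foxp2hum/hum 2 were higher (18.2%, near the 18.1% of all genes), Chl1 (0.51) and Alcam (0.29), adhesion molecules of the immunoglobulin family. Overlaps with other genes were examined for the guidance ligands and receptors alone.

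Between genotypes, no guidance ligand or receptor passed in either region. In DMS, 0 of 68 members and 0 of 19561 genes passed in limma (0% of all genes), with 2 members and 700 genes at an unadjusted p under 0.05. In DLS, 0 members and 0 genes passed (0%), with 3 members and 843 genes at an unadjusted p under 0.05. Counts of members were also 0 by edgeR and DESeq2 in both regions. The interaction of genotype and region gave 0 members and 0 genes (0%), with 0 members and 321 genes at an unadjusted p under 0.05, and 0 members by edgeR or DESeq2. Over all genes, edgeR also gave 0 in each of these comparisons, and DESeq2 gave 3 in DLS and 0 in the others. A 95% interval within 0.5 of 0 on the log2 scale was reached for 37 members in DMS and 39 in DLS, and one within 1 for 65 in each. For the remaining members the interval reached beyond 1.

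The members named for the genotypes are those with the smallest p in each direction. The choroid plexus marker Ttr had a median of 40.8 in wild-type DMS and 659 in Foxp2hum/hum DMS, with ranges that overlapped almost wholly, and did not pass (log2 2.22, limma adjusted p = 0.955). Robo3, already near 0 in wild-type DMS at 0, 4.41 and 19.1, was at 0, 1.42 and 10.7 in Foxp2hum/hum DMS (log2 -1.05 ± 0.36, interval -1.77 to -0.33, unadjusted p = 0.00535, limma adjusted p = 0.955). The ranges overlap, at a few normalised reads. With Ttr as a covariate Robo3 was at -1.20 (adjusted p = 0.917) and Plxnb3 at -0.32. Plxnb3, a plexin of oligodendrocytes, was at 137, 233 and 361 in wild-type DMS and 131, 193 and 243 in Foxp2hum/hum DMS (log2 -0.34 ± 0.13, unadjusted p = 0.0146). Ephb4 was at -0.48, and the 3 members highest in Foxp2hum/hum DMS by that rule were Ntn3 (0.18), Epha5 (0.12) and Epha3 (0.22), all with limma adjusted p = 0.955.

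In DLS the 3 members with an unadjusted p under 0.05 were all lower in Foxp2hum/hum. Sema4a, a transmembrane semaphorin, was at 124, 168 and 287 in wild-type and 66.5, 128 and 194 in Foxp2hum/hum (log2 -0.42 ± 0.14, unadjusted p = 0.00354, limma adjusted p = 0.843). Sema3b, the least abundant member, was at 6.53, 11.6 and 28.3 against 0, 6.05 and 16.2 (log2 -1.11 ± 0.39, unadjusted p = 0.00699). Epha2 was at 8.58, 33.3 and 48.6 against 8.62, 20.1 and 29.5 (log2 -0.68 ± 0.28, unadjusted p = 0.0173). All 3 pairs of groups overlapped. On the other side, Sema3f (0.12), Nrp2 (0.19) and Ntn4 (0.093) were the members above 0 with the smallest p. The interaction was most negative by p for Robo3 (-0.94 ± 0.51), Plxnb3 (-0.30) and Nrp2 (-0.40), and most positive for Ntn3 (0.34), Epha2 (0.58) and Epha3 (0.46), each with limma adjusted p = 1.

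Although none passed alone, most members lay slightly below 0. In Foxp2hum/hum, 57 of 68 were below wild-type in DMS and 58 of 68 in DLS, against 49.9% and 52% of all genes tested. The median log2 difference was -0.11 in DMS and -0.10 in DLS, against 0.00036 and -0.0087 over all genes. Without libraries 70 and 72, both wild-type, the counts were 51 and 48, with medians of -0.085 and -0.066. Library 72, of DMS, had the lowest mitochondrial read share (11.85%) and the smallest scaling factor (0.539) of all libraries. It gave the highest wild-type DMS value of Slit1, Robo1 and Robo2, among others. With Ttr and Ccdc153 as covariates, 55 members were below 0 in DMS and 35 in DLS, and with Dcx 58 and 61. Members share libraries and may vary together, so these counts are given without a test.

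**Figure D4:**
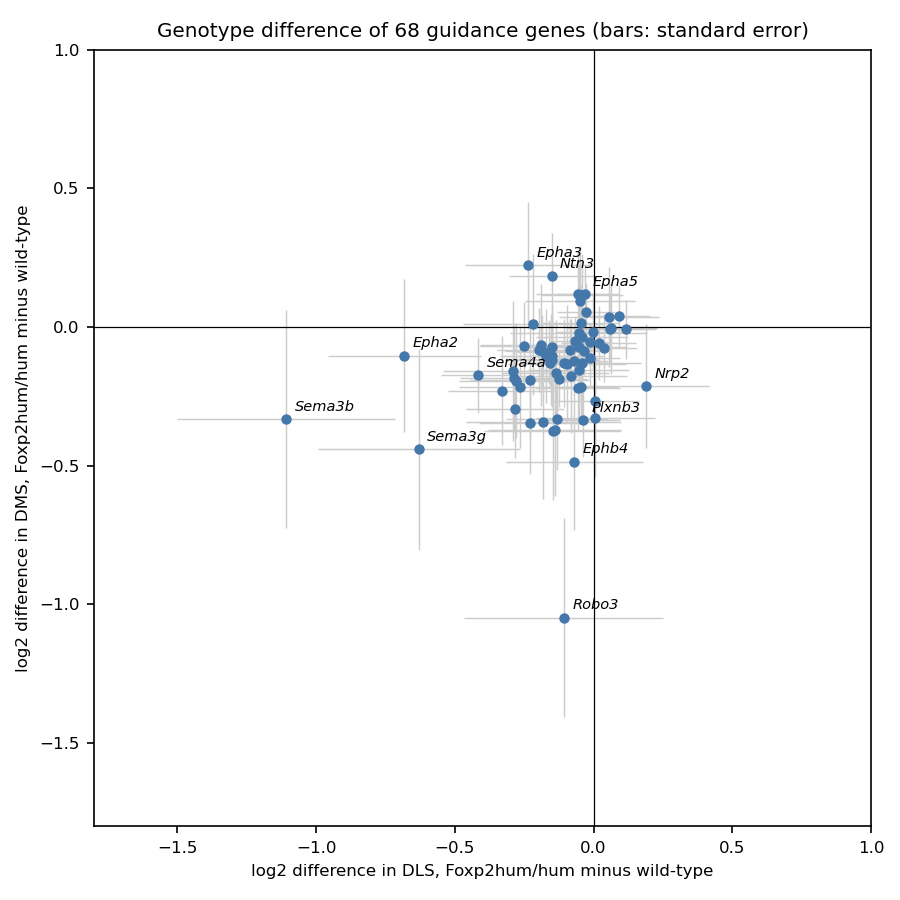
Log2 difference between Foxp2hum/hum and wild-type in DLS (x axis) and in DMS (y axis) for each of the 68 members, with standard errors as bars. Most points lie a little below and to the left of 0, and Robo3 (-1.05 in DMS) and Sema3b (-1.11 in DLS) lie farthest out; none passed an adjusted p of 0.05.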

How the data were processed

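Values are the authors' deposited signal, gene counts scaled by library. The submitters' processing notes name TopHat 1.4.1, bedtools, DESeq and build mm9, while counting options are not given in the sources used here. Libraries were grouped by the header of the table, since the labels list 1 sample a group. Each library's step gave back whole reads for 100% of values (tolerance 0.01 reads), which were used for edgeR 4.0.16 and DESeq2 1.42.0, run as alternatives. The main test was limma 3.58.1 (R 4.3.3) on log2(value + 1) of genes averaging 10 or more (a trended variance prior, 4 group means over all 46 libraries, two-sided, Benjamini-Hochberg adjustment over 19561 genes, threshold 0.05). Errors after ± are standard errors, and intervals are limma's at 95%. Fold differences are on the log2(value + 1) scale, which understates those of low genes. The fit was tested on simulated counts.

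Members, lists and the naming rule were chosen with earlier results of these data known. In full were named Robo2, Efnb3 and Slit1, and members that passed in both genotypes and averaged 50 or more in the group with the larger mean, up to 8 a direction; for genotype and interaction, the 3 smallest p a direction. Of 25259 genes, 25023 were found in GENCODE M1, which gave mm9 positions, exon lengths and overlapping genes. In each of 6 pairs of a member and a gene nested within it the nested value exceeded the member's in 0 libraries. That says little where the nested value is low, as for Gm12535 within Ntng1, at 7.3% of the member's value. The nearest were Hmgn4 within Epha5 (85.8%) and Gm8580 within Ntn4 (79.95%). A value may therefore hold reads of genes within it and of introns. Promoter windows are from RefSeq (GRCm38.p6), placed on mm9 by exact match, and 10 members had no entry: Unc5d, Plxna1, Slit1, Efnb3, Dcc, Sema6a, Sema3f, Ntn1, Sema3b and Plxna4. Alternatives were other pseudocounts, filters and scalings, the compared groups alone, array weights, marker genes as covariates, nested genes subtracted and leaving out libraries. Figures were drawn with matplotlib 3.10.9.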

Additional observations from a re-analysis of the deposited data

How the results depend on the processing

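The number of members that differed between DMS and DLS, 23 in each genotype, was within 1.5 times that under other pseudocounts, filters and scalings, in edgeR (23 and 24, wild-type first) and DESeq2 (24 and 27), in fits of the compared groups alone (19 and 23), with array weights (32 and 33), without libraries 70 and 72 (23 and 25) and with nested genes subtracted (21 and 23). Leaving out each library in turn gave 21 (without library 86) to 26 (without library 89) in wild-type and 20 (without library 84) to 27 (without library 83) in Foxp2hum/hum. With Ttr as a covariate the numbers were 19 and 14, and with Ttr and Ccdc153 they were 6 and 6. The counts of members that differed by genotype or had an interaction were 0 in every alternative run and 0 to 0 without each library. The calls and directions of Robo3, Sema7a and Epha8 between regions held under each alternative in both genotypes, and those of Ephb6 and Plxnc1 under each except Ttr with Ccdc153.

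With Dcx as a covariate, added after seeing the data, the log2 difference turned negative, in wild-type and Foxp2hum/hum respectively, for Slit1 (-0.65 and -0.85), Slit2 (-0.17 and -0.019), Plxnb2 (-0.39 and -0.31), Efnb1 (-0.011 and -0.026), Efnb2 (-0.13 and -0.043), Efnb3 (-0.043 and -0.078), Ephb2 (-0.14 and -0.21), Ntn1 (-0.21 and -0.21), Robo1 (-0.62 and -0.56), Sema3a (-0.094 and -0.028) and Sema4a (-0.36 and -0.11), for Ephb3 (-0.012 and -0.0395), for Plxna3 in wild-type (-0.17) and for Sema3f in Foxp2hum/hum (-0.021). With Ttr and Ccdc153, the sign turned for Epha5 (-0.26 and -0.046), Ntn4 (-0.38 and -0.33), Plxnd1 (0.31 and 0.27), Unc5a (0.28 and 0.16) and Sema3b (-2.35 and -1.37) and for Robo2 in wild-type (0.047). Ntn4 between genotypes in DLS turned to -0.057 with these covariates and to -0.23 with Gm8580 subtracted, the latter also added after seeing the data. The cause was not tested for the covariate fits. No paired analysis was possible because the labels do not number or tie libraries across groups. Below about 50 normalised reads, as for Sema3b and Epha2, few reads a library limit what can be seen.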
